A study of Homo sapiens with 6 samples.

Results

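The data concern the 5 genes of the C/EBP family that carry the CEBP name with a letter, CEBPA, CEBPB, CEBPD, CEBPE and CEBPG, and the sites near them at which the chromatin protein GSE1 was found. All peaks of 2 peak lists that overlapped the annotated span of a gene, extended by 100 kb on each side, were taken (the window of the gene). The windows held 14 of the 21401 peaks of DMSO-treated cells and 6 of the 13233 peaks of MC2580-treated cells. The rule takes genes by name and uses no peak score, but the family was picked with earlier results of these data known.

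NB4 is a human acute promyelocytic leukemia cell line. Cells carried a lentiviral pLEX_307 construct with transcript variant 2 of GSE1 bearing a V5 tag, so that the mapped protein was an added, tagged copy. They received either DMSO or the LSD1 inhibitor MC2580 (2 µM) for 24 h, and chromatin was precipitated with an anti-V5 antibody (ChIP-seq). The series held 3 ChIP and 3 input libraries, 1 per group, the remaining ChIP being from untreated cells with the empty vector (EV). Peaks were called in each GSE1 ChIP against its input and the EV ChIP, and both lists thus share the EV library. Because each condition was a single library, spread between replicates could not be estimated and nothing was tested between conditions. The read depth was unknown as well, and differences are between these 2 libraries. Each peak has a score, minus 10 times the log10 of the p-value of the peak caller. The calling threshold of 1e-05 equals a score of 50, and scores grow with depth. Positions are in hg38, counted from 1. The lists hold no expression values, so the cell type could not be checked against its markers.

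C/EBP proteins are basic leucine zipper transcription factors that bind DNA as dimers. CEBPA commits progenitors to the granulocytic lineage and is recurrently mutated in acute myeloid leukemia. CEBPE drives the late maturation of granulocytes and their granule proteins. CEBPB acts in emergency granulopoiesis and in macrophages, CEBPD in inflammatory responses, and CEBPG is a short form that mainly dimerizes with other family members. LSD1 removes methyl groups from histone H3 lysine 4, and GSE1 is found in complexes with it. CEBPA and CEBPE are both known to be driven in myeloid cells by enhancers that lie downstream of the gene; whether the peaks described here are those elements was not tested.

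The strongest V5-GSE1 peaks near the family lay downstream of CEBPE and CEBPA, and both were present in both lists at lower scores after MC2580. CEBPB had the most peaks, of moderate score. Of its 10 DMSO peaks, 1 overlapped an MC2580 peak by at least 1 bp, against 33.6% of the whole DMSO list. Other DMSO peaks of CEBPB lay within 1 kb of an MC2580 peak without overlap. CEBPD had a single DMSO peak, and CEBPG had none in either list. No peak of either list lay over a transcription start site (TSS) of any of the 5 genes.

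The sequences at the midpoints of 5 DMSO peaks are shown because they are the 4 peaks found in both lists and the strongest peak of the CEBPB window. Each is the plus strand of hg38 over 200 bp around the midpoint of the peak. Capitals mark matches, on either strand, to short words bound by transcription factors: CEBP (TTGCNNAA), CEBP-ATF (TGATGCAA), PU.1 (GAGGAAGT), RUNX (TGTGGTTT or its shorter form TGTGGT, which it contains), AP-1 (TGANTCA), GFI1 (AATCACNGC) and factors of the GATA family (AGATAA or TGATAA). The words TGTGGT and TGATAA were added after the sequences had been seen.
CEBPE downstream peak, chr14:23113229-23113428: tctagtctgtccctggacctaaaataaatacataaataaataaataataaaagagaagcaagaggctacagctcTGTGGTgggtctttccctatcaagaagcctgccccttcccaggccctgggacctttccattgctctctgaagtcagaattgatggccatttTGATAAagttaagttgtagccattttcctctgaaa
CEBPA downstream peak 1, chr19:33260804-33261003: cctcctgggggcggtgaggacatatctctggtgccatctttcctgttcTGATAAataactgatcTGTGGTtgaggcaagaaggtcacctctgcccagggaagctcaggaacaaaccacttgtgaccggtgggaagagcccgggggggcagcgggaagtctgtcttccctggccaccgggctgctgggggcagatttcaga
CEBPA downstream peak 2, chr19:33263408-33263607: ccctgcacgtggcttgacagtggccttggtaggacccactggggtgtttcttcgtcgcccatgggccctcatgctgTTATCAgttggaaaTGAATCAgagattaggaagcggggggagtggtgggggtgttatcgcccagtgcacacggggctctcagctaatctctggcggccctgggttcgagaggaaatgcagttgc
CEBPB strongest peak, chr20:50221587-50221786: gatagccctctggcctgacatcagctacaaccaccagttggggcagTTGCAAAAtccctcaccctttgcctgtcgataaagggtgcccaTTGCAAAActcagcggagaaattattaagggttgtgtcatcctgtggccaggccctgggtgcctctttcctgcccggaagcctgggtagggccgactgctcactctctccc
CEBPB peak in both lists, chr20:50285620-50285819: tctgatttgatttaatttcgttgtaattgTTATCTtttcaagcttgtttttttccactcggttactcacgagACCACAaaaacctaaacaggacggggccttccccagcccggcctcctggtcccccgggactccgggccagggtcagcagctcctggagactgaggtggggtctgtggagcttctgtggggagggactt

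**Figure D1:**
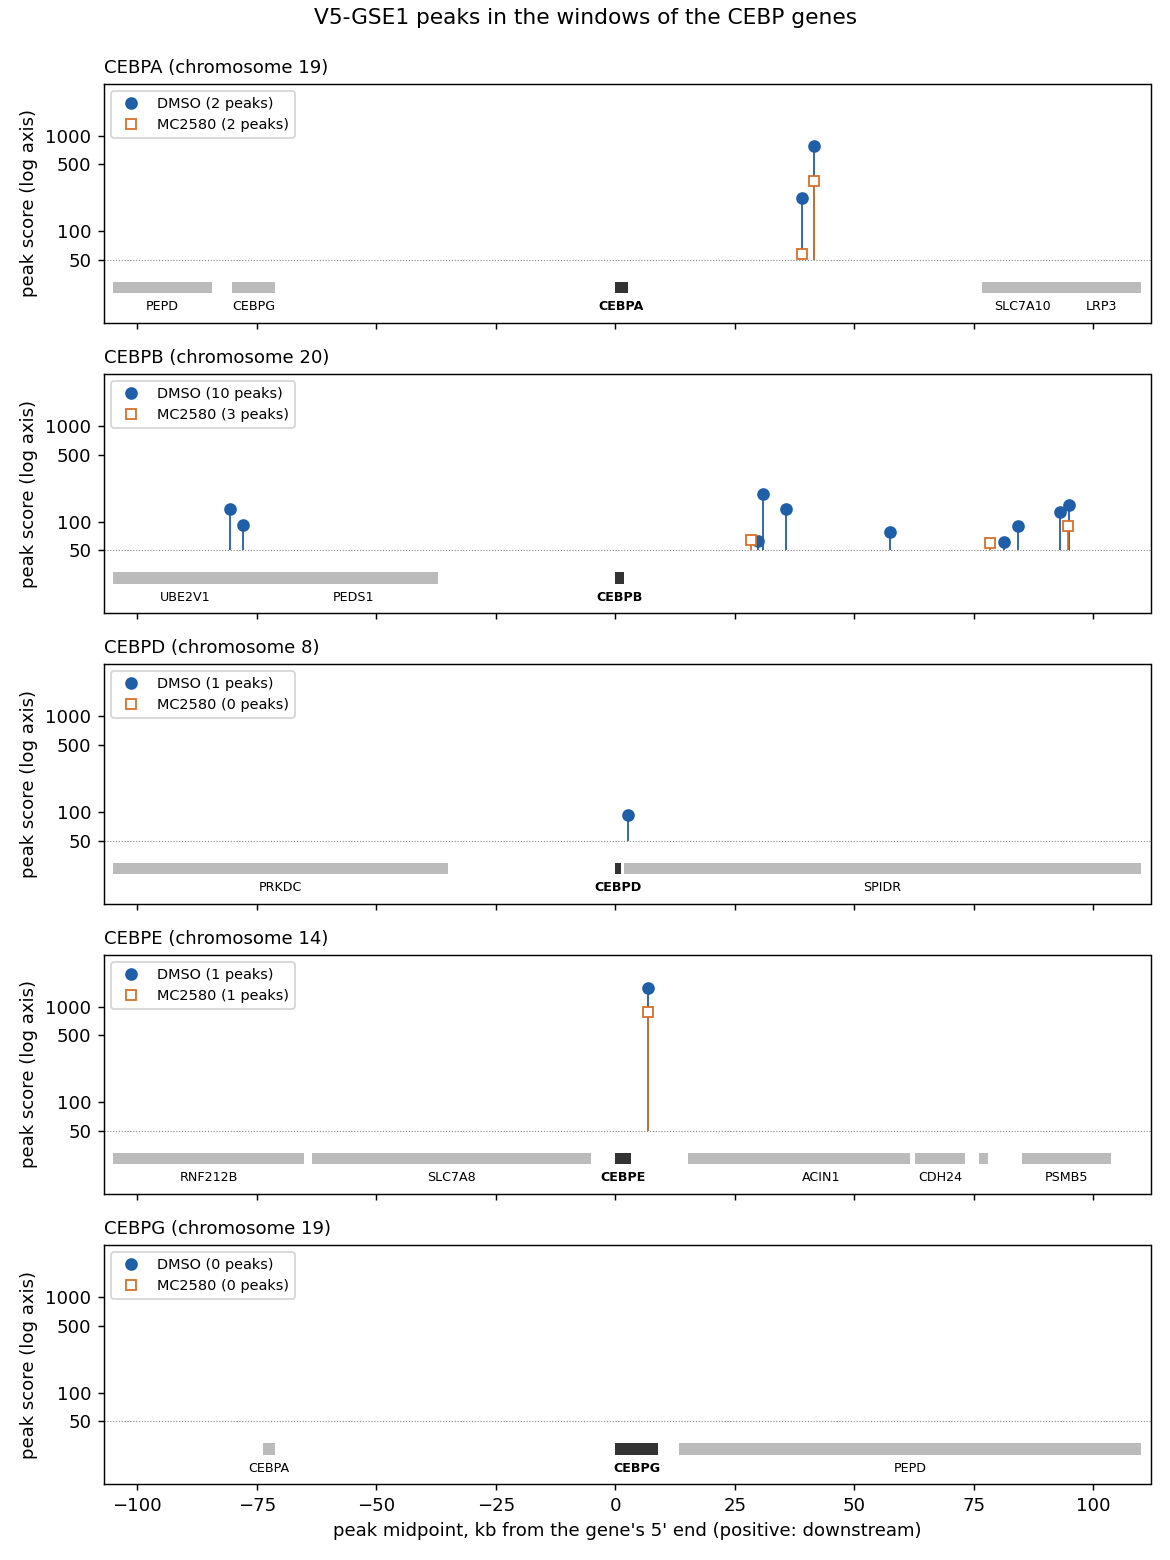
Peaks in the window of each gene, with the distance of the peak midpoint from the 5′ end of the gene (kb, positive downstream) on the x axis and the peak score on a log y axis. Filled circles are DMSO peaks, open squares MC2580 peaks, black bars the gene itself and grey bars neighbouring protein-coding genes; the highest points are the CEBPE peak (1579.42 in DMSO) and the CEBPA peak (785.01 in DMSO), both downstream of their gene.

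CEBPE (chromosome 14, 23117036 to 23120256, minus strand) had a single peak in each list. The DMSO peak ran from 23112298 to 23114361 (2064 bp) with a score of 1579.42, and the MC2580 peak from 23112335 to 23114367 (2033 bp) with a score of 873.78. Both lay in intergenic sequence beyond the 3′ end of the gene, 2675 bp from its span in DMSO, with the midpoint 6.93 kb downstream of its 5′ end. CEBPE was the gene with the nearest TSS, 4894 bp from the edge of the DMSO peak.

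The CEBPE peak stood high in both lists. It ranked 264 of 21401 by score in DMSO and 334 of 13233 in MC2580, so that 1.23% and 2.52% of the peaks had at least its score. On chromosome 14 it ranked 2 of 182 in DMSO and 1 of 46 in MC2580. Of 20033 protein-coding genes, 311 (1.55%) had a DMSO peak of at least this score in their window and 194 (0.968%) had an MC2580 peak of at least its MC2580 score. The surroundings held few other peaks: within 500 kb on each side of the 5′ end there were 3 DMSO peaks and 1 MC2580 peak. The next DMSO peak, outside the window, was 200.3 kb from the gene and had a score of 99.59.

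CEBPA (chromosome 19, 33299934 to 33302534, minus strand) had a pair of peaks in each list, both downstream of the gene in intergenic sequence. The stronger DMSO peak (33260261 to 33261548, score 785.01) lay with its midpoint 41.6 kb from the 5′ end, and the MC2580 peak at this site (33260208 to 33261459) had a score of 334.63. The weaker DMSO peak (33263077 to 33263940, score 221.86) lay 39.0 kb from the 5′ end, and its MC2580 counterpart (33263102 to 33263826) had a score of 57.27, close to the calling threshold. The stronger site was thus within the highest 3.31% of DMSO and 6.51% of MC2580 peaks, whereas the weaker one was within the highest 16.2% of the DMSO list and the highest 76.9% of the shorter MC2580 list. Lists of unequal length and unknown depth make these shares a description of each list, not a measure of change.

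CEBPA was not the nearest coding gene to these sites by TSS. That gene was SLC7A10, an amino acid transporter gene, whose TSS was 34411 bp from the stronger DMSO peak, against 40986 bp for CEBPA. Chromosome 19 carries many peaks (1429 in DMSO and 1449 in MC2580), but few of them lay here. Within 500 kb on each side of the 5′ end of CEBPA there were 4 DMSO peaks and 2 MC2580 peaks, the latter being the pair described. The nearest MC2580 peak outside the window was 3991 kb from the gene.

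CEBPG (chromosome 19, 33373685 to 33382686, plus strand) is the neighbour of CEBPA, and their windows overlap. It had no peak in its window in either list. The nearest peaks were the weaker CEBPA peaks, 109.7 kb from its span in DMSO and 109.9 kb in MC2580, just outside the window. The border also cut through the peaks of CEBPB, where a DMSO peak of score 150.28 lay 92.5 kb from the gene and the next one, of score 107.56, lay outside at 100.4 kb.

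CEBPB (chromosome 20, 50190830 to 50192668, plus strand) had 10 DMSO peaks and 3 MC2580 peaks in its window. Upstream, the DMSO scores were 136.47 at -80.5 kb and 92.66 at -77.9 kb from the 5′ end. These peaks lay 678 bp from and over a TSS of UBE2V1, a gene of the ubiquitin-conjugating enzyme family, and neither had an MC2580 counterpart.

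Downstream of CEBPB, 8 DMSO peaks lay between 29.8 and 94.9 kb from the 5′ end. The first cluster had scores of 63.47 at 29.8 kb, 193.2 at 30.9 kb and 133.96 at 35.7 kb. The second had 77.7 at 57.5 kb, 61.01 at 81.4 kb, 90.97 at 84.3 kb and 126.35 at 93.1 kb, all of them in PELATON, a long non-coding RNA gene. The last, at 94.9 kb, had a score of 150.28. CEBPB had the nearest coding TSS for all 8, although a TSS of PELATON or another non-coding gene was closer.

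Of these 10 DMSO peaks, 1 overlapped an MC2580 peak (33.6% over the whole DMSO list). This was the one at 94.9 kb (50285160 to 50286280), where the MC2580 peak (50284922 to 50286044) scored 89.35. The other MC2580 peaks, at 28.4 kb (score 64.27) and 78.4 kb (60.49), lay 493 and 2202 bp from the nearest DMSO peak. The DMSO peak of score 126.35 lay 273 bp from the shared MC2580 peak. The count of 1 thus depends on the 1 bp rule, and the share of the whole list under a wider rule was not computed. The strongest DMSO peak, 193.2 at 50221136 to 50222239, was 1451 bp from the nearest MC2580 peak. The scores in this window were moderate: between 19.3% and 80.4% of all DMSO peaks scored at least as high as these 10. By contrast, 6.81% of protein-coding genes had as many DMSO peaks or more in their window, and 12.5% had as many MC2580 peaks or more. The region around it was also rich in peaks, with 40 DMSO and 13 MC2580 peaks within 500 kb on each side; the part of this density in the count for CEBPB was not tested.

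CEBPD (chromosome 8, 47736913 to 47738164, minus strand) had 1 DMSO peak, from 47734921 to 47735943, with a score of 93.98, close to the median of its list (91.08). It lay 970 bp beyond the 3′ end of CEBPD and 2221 bp from its TSS. It overlapped the coding sequence and UTR annotation of SPIDR, a DNA repair gene that ends next to CEBPD on the opposite strand. No MC2580 peak lay in the window, and the nearest was 367 kb from the gene.

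**Figure D2:**
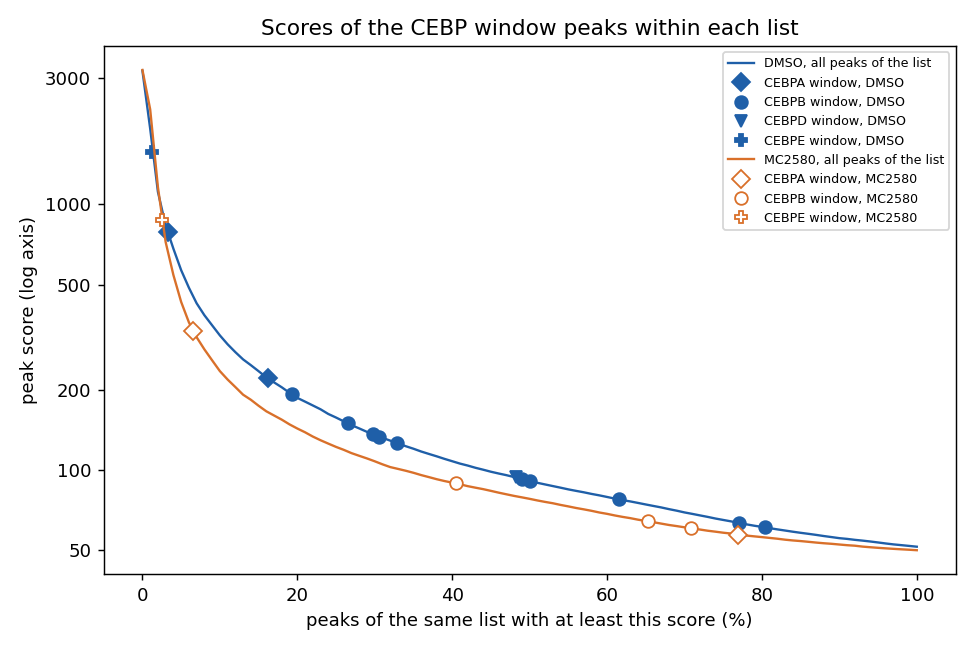
Score of each peak in the windows (log y axis) against the percentage of peaks of the same list with at least that score (x axis), with the curve of all peaks of each list. The CEBPE peaks and the stronger CEBPA peaks lie in the steep left part of both curves, at 1.23% and 3.31% in DMSO and at 2.52% and 6.51% in MC2580, while the CEBPB and CEBPD peaks lie along the flat part.

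The presence of peaks was compared with all protein-coding genes. A DMSO peak lay in the window of 4 of 5 CEBP genes, against 60.0% of 20033 protein-coding genes, and an MC2580 peak in that of 3 of 5, against 36.6%. A DMSO peak that overlapped an MC2580 peak was present for 3 of 5, against 28.1%. Close to a TSS of the gene itself (3 kb or less) DMSO peaks were found for 1 of 5 (CEBPD), against 16.1%, and an MC2580 peak for 0 of 5, against 7.87%. A window includes the gene span, so that longer genes have longer windows. The CEBP genes are short (1252 to 9002 bp), and no window share over coding genes, here or for other genes, was adjusted for length. CEBPA and CEBPG share part of their windows, and counts over 5 genes serve as a description only.

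The overlap between the lists was then considered for the windows together. A counterpart in MC2580 existed for 4 of the 14 DMSO peaks, or 28.6% (exact Clopper-Pearson 95% interval 8.39 to 58.1, counting error only). Over the whole DMSO list the share was 33.6%. In the other direction, 4 of 6 peaks had a DMSO counterpart, or 66.7% (22.3 to 95.7), against 58.0% of the whole list. The intervals are wide and contain the shares of the whole lists. Of the 10 DMSO peaks without a counterpart, 9 belonged to CEBPB and 1 to CEBPD.

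At the 4 shared sites the score was lower in MC2580 each time. The ratio of the MC2580 to the DMSO score was 0.553 for CEBPE, 0.426 for the stronger and 0.258 for the weaker CEBPA site, and 0.595 for CEBPB. Over all 5449 pairs in which 1 DMSO peak met 1 MC2580 peak, the median ratio was 0.638, and 76.7% of the ratios were below 1. A lower score after MC2580 was thus found for most pairs, but not evenly, as many pairs on chromosome 12 scored higher in MC2580. Whether the ratios differed between regions was not tested.

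The 4 sites were also set beside pairs whose DMSO score was within 1.2-fold of theirs. For CEBPE the median of 65 such pairs was 0.325, and 60.0% had a ratio at or below that of CEBPE. For the stronger CEBPA site the median of 237 pairs was 0.308, and 71.3% were at or below it. For the weaker CEBPA site the median of 785 pairs was 0.425, and 9.94% were at or below it. For CEBPB the median of 859 pairs was 0.587, and 51.5% were at or below it. The weaker CEBPA site thus had one of the lower ratios among pairs of its score, whereas the CEBPE and stronger CEBPA sites lay somewhat above the middle. Only sites still called in MC2580 form pairs, so that DMSO peaks without an MC2580 peak are left out. The calling threshold, a score of 50, also sets a lowest possible ratio, which is higher for lower DMSO scores. The weaker CEBPA site, at 57.27 in MC2580, was close to this limit, and its rank holds among called pairs only. A ratio of scores does not separate binding from depth.

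**Figure D3:**
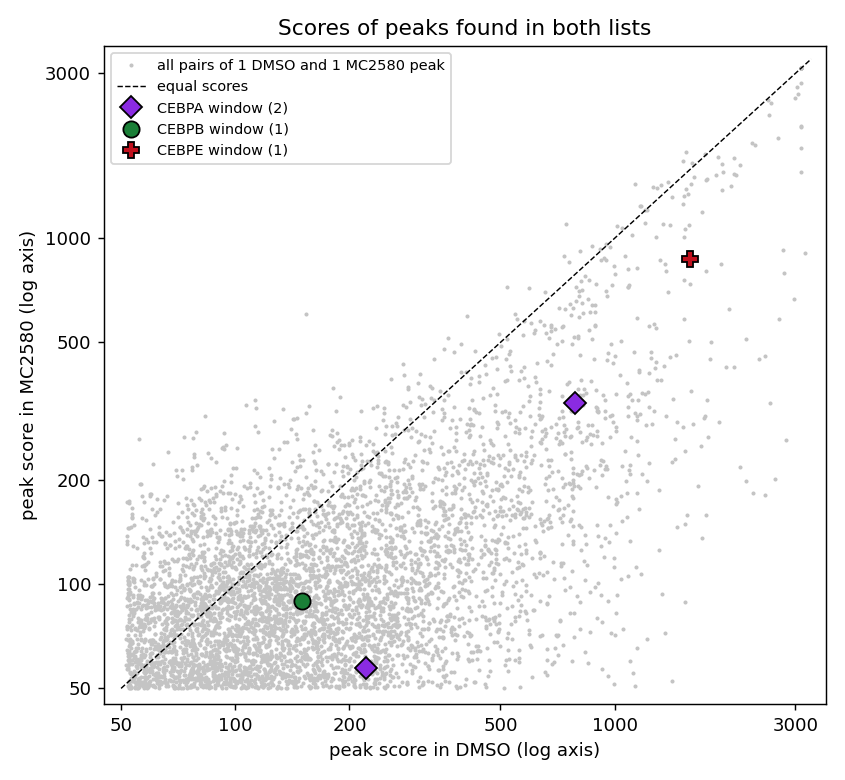
Score in DMSO (x) against score in MC2580 (y) for all 5449 pairs of overlapping peaks (grey points), both on log axes, with the line of equal scores dashed. The 4 pairs near CEBPA, CEBPB and CEBPE lie below the line, and the weaker CEBPA pair (221.86 and 57.27) lies near the lower edge.

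The shared peaks lay at nearly the same positions in both lists. The midpoints differed by 22 bp at CEBPE, 71 and 44 bp at CEBPA and 237 bp at CEBPB, against a median of 130 bp over all pairs. The MC2580 peak covered 98.2% of the DMSO peak at CEBPE, 93.1% and 83.9% at CEBPA, and 78.9% at CEBPB.

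The words at the peak midpoints were counted in the 200 bp windows. The CEBP word, the site that the proteins themselves bind, was present in 3 of 14 DMSO peaks, all in the CEBPB window, against 14% of the 21145 DMSO peaks on chromosomes 1 to 22, X and Y. The strongest CEBPB peak carried it at 2 places, as shown in its sequence above. None of the 6 MC2580 peaks carried it, against 11.1% of the list. The stricter palindrome TTGCGCAA was absent from all of them. Over whole peaks, the DMSO list held 0.551 CEBP words per kb. The CEBPE DMSO peak held 2 (0.969 per kb) and the CEBPD peak 3 (2.93 per kb). The CEBPB DMSO peaks held 0 to 3 each, with the highest density at the strongest of them (2.72 per kb). Neither CEBPA peak held any.

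The shared sites carried other words. The CEBPE and the stronger CEBPA midpoint windows each held TGTGGT and TGATAA, and the weaker CEBPA window held TGATAA and an AP-1 word. The shared CEBPB site held TGTGGT and AGATAA but no TGATAA at its DMSO midpoint, and none of the words at its MC2580 midpoint. The word TGTGGT was present in 5 of 14 DMSO peaks, against 23.3% of the list, and TGATAA in 4 of 14, against 7.80%. Both words were picked on these sequences, so that nothing can be read from their counts against the list. The longer RUNX word was in 0 of 14 (4.64% of the list), the PU.1 word in 0 (2.96%), the GFI1 word in 0 (1.24%), the AP-1 word in 2 (9.31%), AGATAA in 1 (10.7%) and the CEBP-ATF word in 1 (1.29%). In MC2580 the AP-1 word was in 2 of 6 (7.72%), TGTGGT in 3 (19.3%) and TGATAA in 3 (7.67%, the CEBPE and CEBPA sites already counted in DMSO), and the other words in none (RUNX 3.18%, PU.1 1.95%, GFI1 0.702%, AGATAA 10.6%, CEBP-ATF 0.941%). Matches of such short words are descriptions and not evidence of binding. The GC content of the DMSO windows was 41.5% at CEBPE and 58.5% at both CEBPA sites, with a median of 49.0% over the DMSO list. At the CEBPB peaks it ran from 46.5% to 79%, mostly above that median, and at CEBPD it was 52.5%. The word counts were not adjusted for GC content.

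Genes that work with the family were examined by the same rule. The first list held 7 partners and regulators: DDIT3 (also called CHOP) and ATF4, which dimerize with C/EBP proteins, the related factor NFIL3, the pseudokinases TRIB1, TRIB2 and TRIB3, and COP1, the ubiquitin ligase through which TRIB1 and TRIB2 degrade CEBPA. A DMSO peak lay in the window of 3 of 7 (60.0% of all coding genes) and an MC2580 peak in that of 1 of 7 (36.6%), with a shared site for 0 of 7 (28.1%). DDIT3 had a DMSO peak 450 bp from a TSS (score 74.78) and TRIB3 one 1720 bp from a TSS (56.16), and neither gene had an MC2580 peak there. Over all coding genes, a peak within 3 kb of a TSS was present for 16.1% in DMSO and 7.87% in MC2580.

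The second list held 18 myeloid genes that are known or likely C/EBP targets. A DMSO peak lay in the window of 16 of 18 (60.0% of all coding genes), an MC2580 peak in that of 8 of 18 (36.6%), and a shared site in that of 7 of 18 (28.1%). The genes are not independent, as ELANE, PRTN3 and AZU1 share a peak and so do S100A8 and S100A9. The windows held 36 distinct DMSO peaks, of which 8 (22.2%) overlapped an MC2580 peak, against 33.6% of the whole DMSO list. In the other direction, 9 of 11 distinct MC2580 peaks (81.8%) overlapped a DMSO peak, against 58% of the whole MC2580 list.

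Promoter peaks, by the 3 kb rule, were present for 6 of the 18 in DMSO (16.1% of all coding genes) and for 2 in MC2580 (7.87%). MPO, which encodes the myeloperoxidase of primary granules, had a DMSO peak of score 816.58 over a TSS, from 58280536 to 58282589 on chromosome 17. It overlapped an MC2580 peak of score 146.32 (58281352 to 58282399), 417 bp from a TSS. A weaker MC2580 peak (52.9), from 58278665 to 58279429, lay over another TSS of MPO and had no DMSO counterpart. IL6R, the interleukin-6 receptor gene, had a DMSO peak over a TSS at 307.94, and CSF1R, the receptor for macrophage colony-stimulating factor, one at 208.9. CAMP, an antimicrobial peptide gene of secondary granules, had one at 114.28, and LYZ, the lysozyme gene, one at 58.46. None of these 4 had an MC2580 peak within 3 kb. Promoter peaks were fewer in MC2580 over all coding genes as well (1577 genes, against 3234 in DMSO). The share of coding genes with a DMSO but no MC2580 promoter peak was not computed. CSF1R had 3 MC2580 peaks in its window, the nearest 3472 bp from a TSS, whereas IL6R, CAMP and LYZ had none there. AZU1, an azurophil granule gene, had peaks of 91.51 and 80.59 in DMSO and MC2580, 861 and 954 bp from a TSS.

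**Figure D4:**
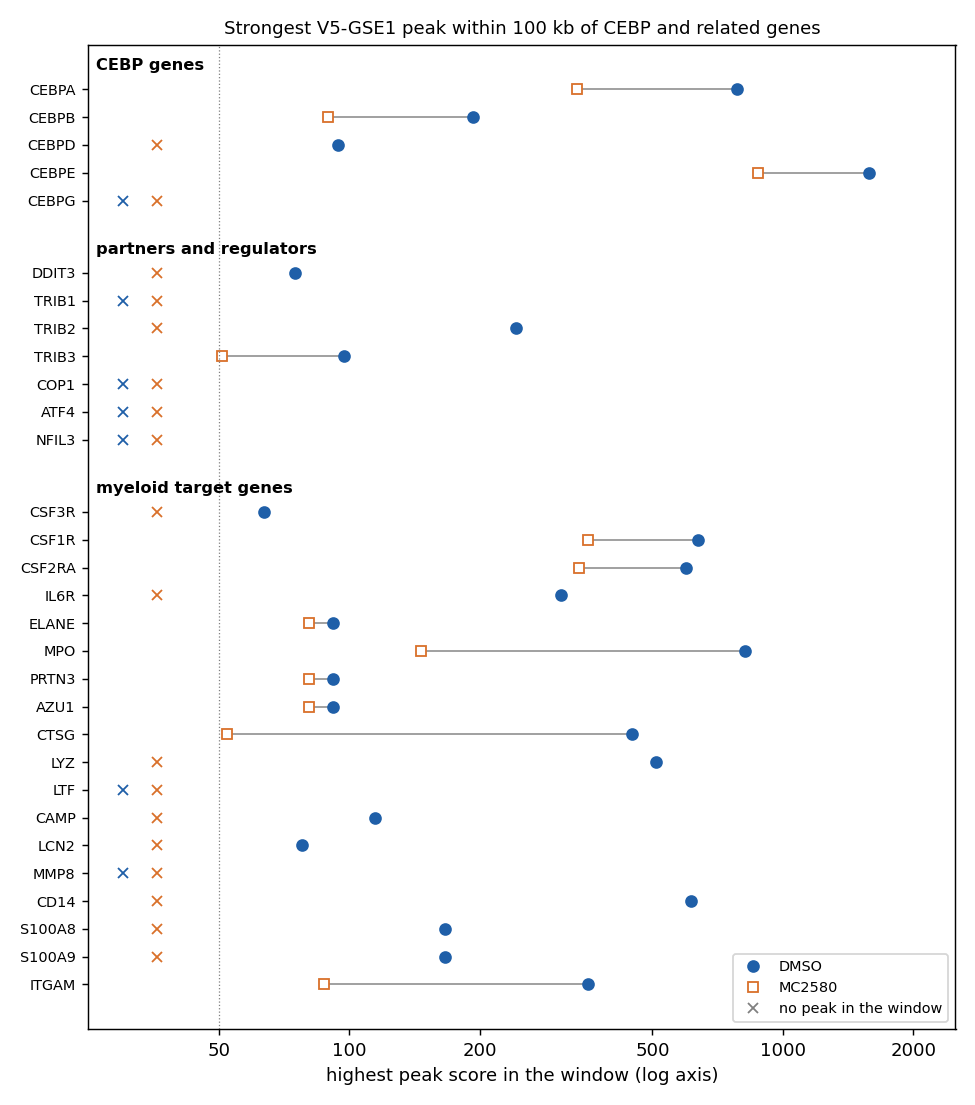
Highest peak score in the window of each gene (log x axis) for the 5 CEBP genes, 7 partners and regulators, and 18 myeloid target genes, with filled circles for DMSO, open squares for MC2580 and crosses at the left for windows without a peak. Among the genes plotted CEBPE has the highest score in both lists (1579.42 and 873.78), and no gene has a higher score in MC2580 than in DMSO.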

How the data were processed

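Per the study's methods, Bowtie was used for alignment to hg38 with unique matches retained, and the authors called peaks with MACS for each condition at a p-value of 1e-05, with the input and the EV ChIP as background. How both backgrounds were combined was not given in the sources used here. The deposited files were 2 peak lists with a score per peak, as the authors' peak caller wrote it, and each list was assigned to its condition by its name. No column was left out.

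Gene spans and TSSs came from GENCODE version 44 (20033 protein-coding genes). Peaks were shared if they overlapped by at least 1 bp. A promoter peak had its edge within 3 kb of a TSS, and distances from a 5′ end were measured from the peak midpoint. Words were counted on both strands. Every peak of the 5 windows was described. The members and lists were chosen with earlier results of these data known, and the 1.2-fold range of scores after the data were seen. Intervals cover counting error only. Interval and word functions were tested on simulated data. Computations used Python 3.11.15, numpy 2.4.6, scipy 1.17.1 and matplotlib 3.10.9.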

Additional observations from a re-analysis of the deposited data

How the results depend on the processing

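No paired analysis was possible because each condition was a single library, so that no replicate could be left out either. Apart from the words added later, 48 values were computed under other settings, of which 30 stayed within 1.5 times the count or within the Wilson 95% interval of the share, and 18 did not. Windows of 50 kb gave 7 DMSO peaks, and windows of 200 kb gave 31 DMSO and 11 MC2580 peaks, of which 9 and 9 were shared. A score of at least 100 left 8 DMSO and 2 MC2580 peaks, with 2 and 2 shared. CEBP genes with a DMSO promoter peak became 0 within 1 kb of a TSS and 0 at a score of at least 100. The word TTGCGCAA was found at 0 DMSO midpoints. The share of coding genes with a DMSO peak was 47.9%, 73.0% and 43.4% with windows of 50 kb, of 200 kb and a score of at least 100, and with an MC2580 peak 27.3%, 48.7% and 16.1%. The shifts with window size and score follow from more or fewer peaks being counted. Those with the 1 kb limit and the word TTGCGCAA follow from a stricter rule on the same peaks. Merging, removal of the widest peaks and other overlap rules stayed within these limits. Counting a gap of at most 1 kb as shared gave 6 DMSO and 5 MC2580 peaks with a counterpart, against 4 and 4. The words TGTGGT and TGATAA, chosen after seeing the data, added 4 more values, which all moved: they gave 5 and 4 DMSO and 3 and 3 MC2580 peaks, against 0 and 1, and 0 and 0, for TGTGGTTT and AGATAA. Read depth, on which scores and peak numbers depend, could not be varied.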
